A study of Mus musculus with 4 samples.

Results

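The comparison described here is of chondrocytes that lack XBP1 with wild type chondrocytes. Its members were chosen by the array titles: 1 array of XBP1 null and 1 array of wild type cells, out of 4 arrays in the series. The other 2 arrays, of a double mutant and a Matn3 mutant, hold the same deletion and its control in mice that carry the V194D mutation of matrilin-3, a cartilage matrix protein. All cells were freed with collagenase from the costal cartilage of C57BL6/J mice aged 5 days. XBP1 null mice (Xbp1 Col2CreΔex2) lose exon 2 of Xbp1 through a Cre recombinase driven by the Col2a1 promoter, which is active in cartilage. Whether other cells in the digest keep the exon was not analysed here. Wild type mice (Xbp1 WT) keep exon 2, and neither of these genotypes carries the V194D mutation. Double mutant mice (Xbp1 Col2CreΔex2 Matn3 V194D) carry both changes and Matn3 mutant mice (Xbp1 WT Matn3 V194D) only the second. RNA of each genotype was pooled from 3 extractions and hybridized to 1 Mouse430_2 array, a 3′ expression array. None of the array differences below thus has a replicate array, an error between animals or a test.

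In the unfolded protein response, sensors in the membrane of the endoplasmic reticulum (ER) react to misfolded protein in its lumen. The sensor IRE1, encoded by Ern1, removes an intron from Xbp1 mRNA, and the protein then translated is a transcription factor for chaperones, for ER-associated degradation and for secretory transport. The sensor PERK, encoded by Eif2ak3, phosphorylates the initiation factor eIF2, which favours translation of ATF4, an activator of genes for amino acid import, amino acid synthesis and tRNA charging. The sensor ATF6 is cut in the Golgi by the proteases encoded by Mbtps1 and Mbtps2 and also acts on chaperone genes. Chondrocytes secrete large amounts of collagen and proteoglycan, which makes protein folding in the ER a central task of these cells.

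Stretches of promoters of ATF4 targets and of ER chaperones are shown first, since the results turn on the unlike values of these groups. Each printed stretch holds 1 of 2 motifs that part of its group carries. The sequences are those of RefSeq in build GRCm38.p6, read 5′ to 3′ on the strand of the gene. In the first 4, capitals mark the amino acid response element (AARE), searched as TGATGNAA on both strands, a search that was added after the values had been seen.
Asns (chr6:7693210-7693267, minus strand): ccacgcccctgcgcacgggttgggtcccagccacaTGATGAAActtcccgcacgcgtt
Slc7a11 (chr3:50443618-50443714, minus strand): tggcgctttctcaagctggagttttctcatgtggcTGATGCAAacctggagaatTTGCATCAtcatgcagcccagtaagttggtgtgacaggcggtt
Gars (chr6:55037936-55038000, plus strand): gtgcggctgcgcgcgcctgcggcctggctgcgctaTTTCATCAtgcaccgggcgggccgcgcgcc
Vldlr (chr19:27216785-27216862, plus strand): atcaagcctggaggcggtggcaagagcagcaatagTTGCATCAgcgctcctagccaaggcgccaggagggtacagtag
In the other 4, capitals mark the ER stress response element (ERSE), searched on both strands as CCAAT and CCACG with 9 bases between them.
Hspa5 (chr2:34771990-34772078, plus strand): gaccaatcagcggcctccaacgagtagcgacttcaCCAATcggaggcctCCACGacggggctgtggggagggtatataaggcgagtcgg
Calr (chr8:84847040-84847128, minus strand): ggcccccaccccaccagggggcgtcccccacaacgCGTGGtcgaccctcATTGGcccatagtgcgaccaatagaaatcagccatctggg
Pdia6 (chr12:17266456-17266544, plus strand): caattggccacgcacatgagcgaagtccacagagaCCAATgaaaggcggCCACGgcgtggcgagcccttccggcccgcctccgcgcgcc
Creld2 (chr15:88819485-88819573, plus strand): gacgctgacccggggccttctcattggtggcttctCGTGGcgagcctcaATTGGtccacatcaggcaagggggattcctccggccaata

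Counted over promoters of 250 bases before to 50 after a start, the AARE letters were found in 14 of the 35 ATF4 targets with a promoter in the table (40%) and in 4.51% of 27025 genes. The ERSE letters were found in 8 of 33 ER chaperones (24.2%), in 0 of the 35 ATF4 targets and in 0.137% of all genes. The AARE letters also stood in 2 of the 33 chaperones (6.06%), Cnpy2 and Txndc5, and most members of both groups held neither motif. The nearest of the printed AARE matches to a start was that of Asns, whose first base lies 23 bases before it. In Slc7a11 the letters occur on both strands, 66 and 47 bases before the start. A match of letters is a description and no evidence that a factor binds there.

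Signals of 18193 genes were compared, each gene represented by its brightest probe set. A gene was counted as higher or lower when its signal differed by over 1.5-fold. By this rule 4230 genes (23.3%) were higher in XBP1 null than in wild type chondrocytes and 2100 (11.5%) were lower, with a median log2 difference of 0.09. The count of each list below is to be read beside these shares of all genes. Among the 9097 genes whose mean signal over both arrays reached the median (a signal of about 117), 1561 (17.2%) were higher and 375 (4.12%) lower, with a median of 0.11. After quantile normalization the calls among bright genes were 1176 higher and 659 lower, so that the share of higher calls was 64.1% in place of 80.6%. The precision of a single difference was read from genes with several probe sets, whose differences had an SD of 0.37 on the log2 scale among 3673 bright genes, of 0.22 at signals over 1024 and of 1.13 at signals under 16. Wild type was the array with the lowest of the 4 signals for 35.7% of the bright genes and XBP1 null for 10.4%.

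**Figure D1:**
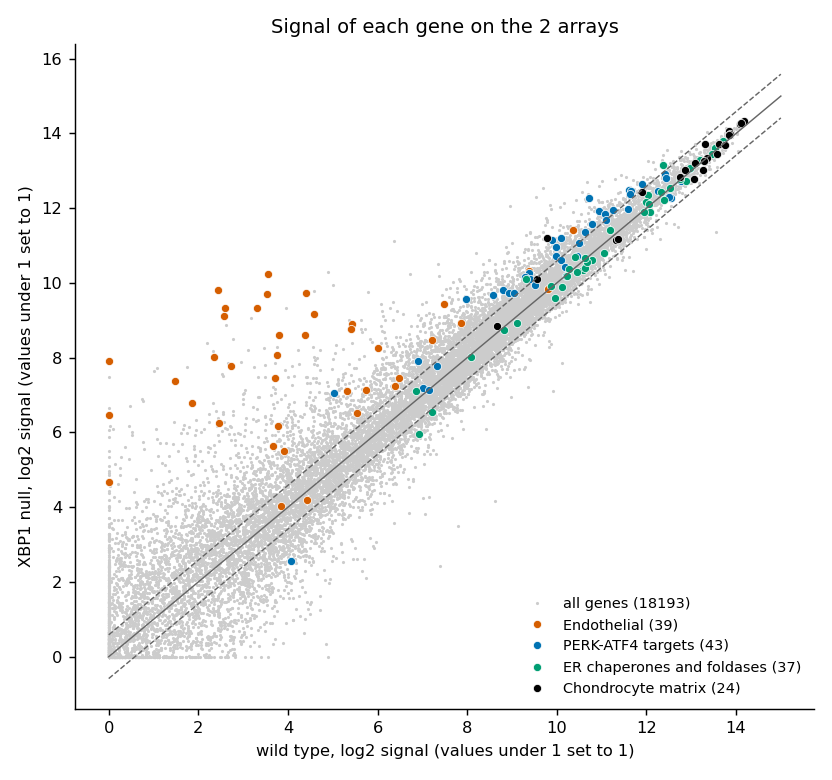
Log2 signal of each of the 18193 genes on the XBP1 null array (vertical axis) against the wild type array (horizontal axis), 1 array each, with dashed lines at a 1.5-fold difference. Most endothelial markers lie far above the upper line, 24 of 43 ATF4 targets lie above it, and ER chaperones and chondrocyte matrix genes lie between the lines, except for 2 chaperones and 1 matrix gene above and 2 chaperones below them.

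Xbp1 itself differed little between the arrays. Its brightest probe set had a signal of 7877 in XBP1 null and 8183 in wild type chondrocytes, and the others had 5956 in XBP1 null and 6353 in wild type, 1917 in XBP1 null and 2297 in wild type, and 117 in XBP1 null and 92.8 in wild type. Where these probe sets lie relative to exon 2 was not analysed here, and a probe set outside that exon cannot show the deletion, so these values are no check of the genotype. Matn3, whose protein carries the V194D mutation on the other arrays, had 9945 in XBP1 null and 10185 in wild type chondrocytes. The brightest Y-linked probe sets were present on both arrays, with Eif2s3y at 665 in XBP1 null and 484 in wild type, while Xist was at 5262 in XBP1 null and 7393 in wild type, so each pool held RNA of both sexes.

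The sensors and transcription factors of the response were counted as 6 higher and 0 lower of 18, with a median of 0.19. By the median over probe sets 4 were higher and 3 lower, with a median of 0.18. Atf6 had a signal of 509 in XBP1 null and 187 in wild type chondrocytes, 2.73-fold higher, and all 3 of its probe sets were over 1.5-fold higher. Ern1 had 922 in XBP1 null and 465 in wild type chondrocytes, 1.99-fold higher by its brightest probe set. Of its 5 probe sets 2 were over the threshold, and the lowest differed by -0.31 on the log2 scale. The second of those 2 had low signals of 21.7 in XBP1 null and 11.7 in wild type. The next brightest probe set, at 143 in XBP1 null and 108 in wild type, was under the threshold. Eif2ak3, the gene of PERK, had 1234 in XBP1 null and 1190 in wild type by its brightest probe set, a log2 difference of 0.05. Its other 2 probe sets were over 1.5-fold lower, at low signals (17.4 in XBP1 null and 48.5 in wild type, and 10.8 in XBP1 null and 27.9 in wild type). Atf6 was thus higher in every probe set, while calls of Ern1 and Eif2ak3 outside their brightest probe sets lay at low signals. Atf5, a transcription factor of the PERK arm, was 2.01-fold higher (903 in XBP1 null, 448 in wild type), and Trib3, a pseudokinase that feeds back on ATF4, was 2.13-fold higher (2341 in XBP1 null and 1099 in wild type). Mbtps2, the site-2 protease that releases ATF6, had 707 in XBP1 null and 407 in wild type chondrocytes. Ppp1r15b, a subunit of the phosphatase that reverses the PERK signal, was 2.19-fold higher by its brightest probe set, and its other probe set differed the other way (-0.34). The mRNA of Atf4 itself was at 12128 in XBP1 null and 10502 in wild type chondrocytes, a log2 difference of 0.21. Ddit3, which encodes the stress factor CHOP, was at 6726 in XBP1 null and 7047 in wild type chondrocytes by its brightest probe set. Its other probe set was at 688 in XBP1 null and 1966 in wild type. By quantitative PCR with replicates, the study reports unchanged mRNA of Ern1, Eif2ak3 and Ddit3 in its mouse lines, unlike the array value of Ern1 given here.

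Genes of the ER folding machinery differed little by their brightest probe sets. Of 37 ER chaperones and foldases, 2 were higher and 2 lower, with a median of -0.03, beside 0.09 for all genes. Hspa5, the ER HSP70 known as BiP, had 14150 in XBP1 null and 13371 in wild type chondrocytes (log2 difference 0.08). Calr, a lectin chaperone for glycoproteins, had 7032 in XBP1 null and 6835 in wild type. Hyou1, an HSP110 of the ER lumen, had 257 in XBP1 null and 273 in wild type chondrocytes, and its log2 difference of -0.09 lies well inside the spread between probe sets. Creld2, a stress-induced protein with a disulphide isomerase activity, had 1509 in XBP1 null and 1645 in wild type, and Pdia6, a disulphide isomerase, 4754 in XBP1 null and 5382 in wild type by its brightest probe set. The second probe set of Pdia6, at 37.0 in XBP1 null and 189 in wild type, was 5.10-fold lower. Dnajc3, a J-domain cofactor of BiP, had 1769 in XBP1 null and 2109 in wild type chondrocytes, a log2 difference of -0.25. The genes past the threshold were Hspa13, an ER HSP70-like ATPase (1099 in XBP1 null, 631 in wild type), and Pdia3, the disulphide isomerase that works with calreticulin (9044 in XBP1 null and 5259 in wild type), both higher, and Txndc11 (62.1 in XBP1 null and 121 in wild type) and Cnpy3 (93.6 in XBP1 null and 147 in wild type), both lower. The second probe set of Pdia3 differed by -0.12, so that the brightest probe set alone carries that call. The 8 chaperones whose promoter holds the ERSE letters had differences between -0.25 and 0.26 with a median of 0.03, and none passed 1.5-fold.

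Degradation and transport genes were near level as well. Of 24 genes of ER-associated degradation, which draws misfolded protein out of the ER to the proteasome, 0 were higher and 2 lower. Rnf5, a ubiquitin ligase of the ER membrane, was 1.88-fold lower (175 in XBP1 null, 329 in wild type), and Derl3, a channel component, had low signals of 10.3 in XBP1 null and 18.7 in wild type. Of 61 genes for translocation into the ER, glycosylation and vesicle transport, 2 were higher and 0 lower, with a median of 0.01. The higher ones were Sec24a, a cargo adaptor of the COPII coat, with 2903 in XBP1 null and 1133 in wild type chondrocytes but with a second probe set at -0.86, and Tmed2, a cargo receptor with signals of 17.97 in XBP1 null and 8.73 in wild type. The study, citing earlier work, tabulates genes downstream of XBP1, alone or with ATF6. Of the 17 measured here, 5 stand there as XBP1 targets, 5 under XBP1 and/or ATF6 (with Xbp1 itself) and 7 under both together. Of these 17 genes 2 were higher and 0 lower, with a median of 0.01. Those 2 were Hao1, a peroxisomal oxidase (301 in XBP1 null, 37.6 in wild type), and Abcb1a, a drug efflux pump (152 in XBP1 null and 47.2 in wild type). Reported targets of IRE1-dependent decay, mRNAs that the IRE1 nuclease cuts, were counted as 4 higher (26.7%, beside 23.3% of all genes) and 0 lower of 15, with a median of 0.20 and with Galnt10, a glycosyltransferase of the Golgi, at 238 in XBP1 null and 148 in wild type chondrocytes.

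The ATF4 targets were higher in XBP1 null chondrocytes as a group. Past 1.5-fold, 24 of the 43 were higher and only 1 lower, with a median log2 difference of 0.71, against 23.3% higher and a median of 0.09 over all genes. Quantile normalization left 18 higher and 1 lower, with a median of 0.56. The groups within the list were alike: 6 of 9 transporters, 6 of 9 genes of amino acid synthesis, 6 of 11 tRNA synthetases and 6 of 14 stress effectors were higher. The gene that was lower was Cbs, of cysteine synthesis, at signals of 5.90 in XBP1 null and 16.9 in wild type.

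Among the transporters, Slc7a11, which imports cystine, had 133 in XBP1 null, 32.4 in wild type, 118 in double mutant and 188 in Matn3 mutant chondrocytes. It was 4.09-fold higher in XBP1 null than in wild type cells, the widest ratio of the list. Slc7a1, a carrier of cationic amino acids, had 4970 in XBP1 null and 1676 in wild type chondrocytes, with 2 of its 3 probe sets higher and 1 lower. Slc1a4, a carrier of neutral amino acids, had 822 in XBP1 null and 383 in wild type, and Slc6a9, a glycine carrier, 242 in XBP1 null and 120 in wild type. Each of these carriers had its lowest signal of the 4 arrays in wild type cells.

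Genes of amino acid synthesis and tRNA charging gave smaller ratios over more probe sets. Asns, asparagine synthetase, had 5627 in XBP1 null, 3221 in wild type, 5793 in double mutant and 5942 in Matn3 mutant chondrocytes. Its 2 probe sets differed by 0.80 and 0.83. Psat1, of serine synthesis, had 1993 in XBP1 null and 1014 in wild type chondrocytes, and Cth, which makes cysteine, 3884 in XBP1 null and 1955 in wild type. Gars, the glycyl-tRNA synthetase, had 5759 in XBP1 null and 3121 in wild type chondrocytes, 1.84-fold higher. Wild type cells again stood alone: their signal was the lowest of the 4 for 35 of the 43 genes (81.4%), beside 35.3% of all genes.

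Stress effectors within the list were less uniform. Stc2, a secreted glycoprotein, had 765 in XBP1 null and 253 in wild type chondrocytes, and all 3 of its probe sets were higher. Vldlr, a lipoprotein receptor, had 2267 in XBP1 null and 954 in wild type, 2.38-fold higher, and all 6 of its probe sets were higher. Eif4ebp1, a repressor of cap-dependent translation, had 3048 in XBP1 null and 1766 in wild type chondrocytes. By contrast Ddit3, Herpud1 and Nupr1, which respond to the same factor, stayed within 1.5-fold by their brightest probe sets. The 14 ATF4 targets with the AARE letters in their promoter had a median of 0.75, from -0.27 to 2.03, and 8 of them were higher. This lies near the whole list (24 of 43 higher, median 0.71), so the letters did not set these members apart. Of all 7449 bright genes with a known promoter, 16.5% were higher, and of the 193 with these letters 58 were (30.1%), with a median of 0.20. Those 193 include ATF4 targets of the list. Markers of vessels and of connective tissue, described below, were higher on the same array, and their part in the difference of the ATF4 list was not tested.

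**Figure D2:**
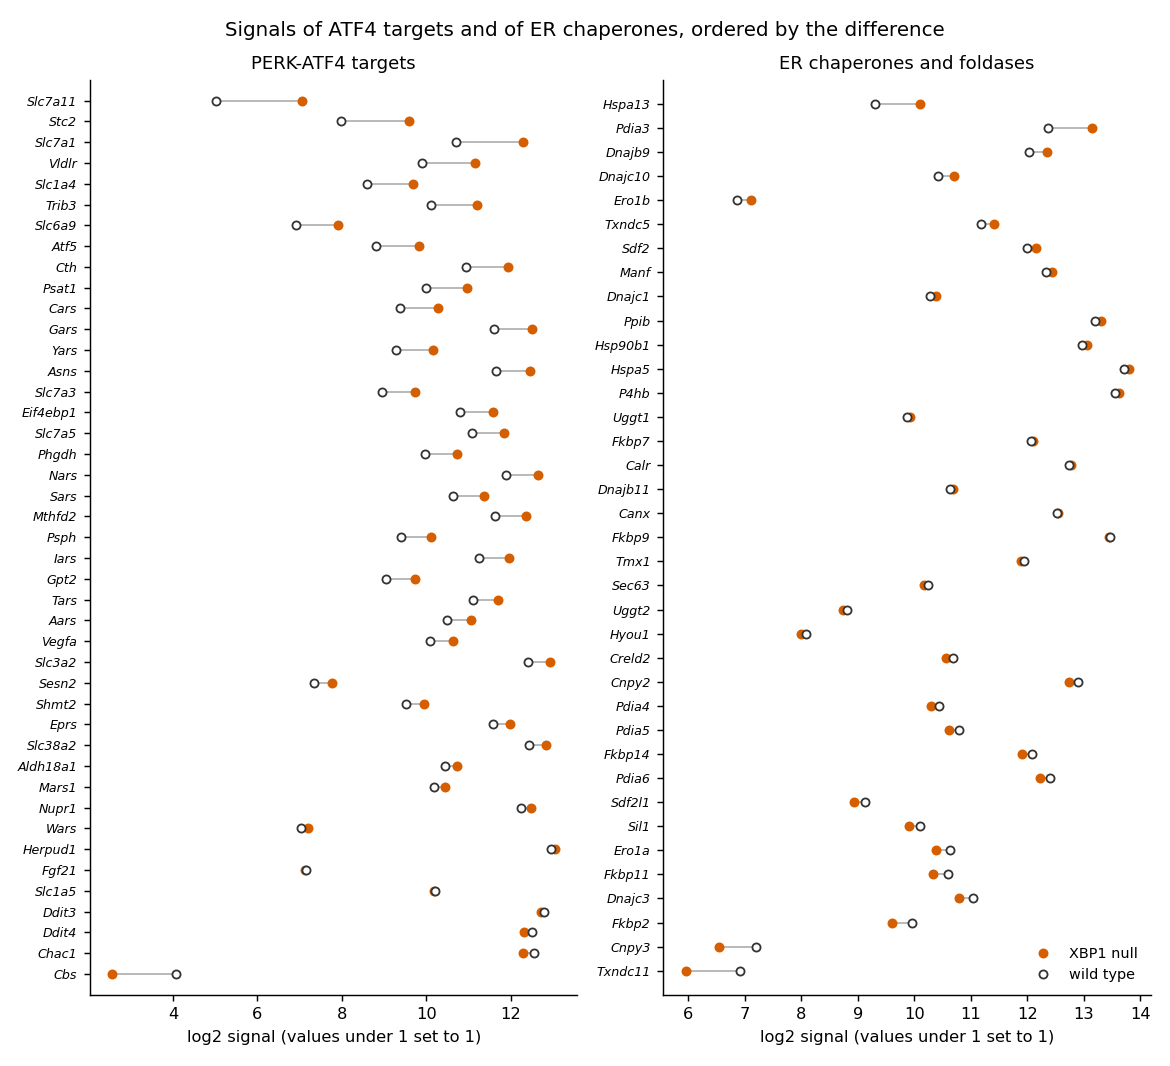
Log2 signal of each ATF4 target (left) and each ER chaperone or foldase (right) in XBP1 null (filled circles) and wild type chondrocytes (open circles), 1 array each, with genes ordered by the difference. In most rows of the left panel the filled circle lies to the right of the open one (24 of 43 by over 1.5-fold), while in the right panel the circles nearly coincide (2 of 37 higher and 2 lower by over 1.5-fold).

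Cytosolic heat shock genes, whose products fold proteins outside the ER, were more often lower than higher. Of 35 genes 2 were higher and 6 lower (17.1%, beside 11.5% of all genes), with a median of -0.19 beside 0.09 for all genes. Of the 32 that reached the median signal 2 were higher and 5 lower, beside 17.2% and 4.12% of all genes that reached it. After quantile normalization 1 was higher and 10 were lower, a scaling that also moved the lower calls over all genes to 2501 in place of 2100. Dnaja4, an HSP40 cochaperone, had 2306 in XBP1 null, 5054 in wild type, 545 in double mutant and 1228 in Matn3 mutant chondrocytes, and all 3 of its probe sets were lower in XBP1 null cells. Hspa4l, an HSP110 of the cytosol, had 131 in XBP1 null and 215 in wild type chondrocytes, lower in all 5 probe sets. Ahsa2, a homologue of an HSP90 activator, had 393 in XBP1 null and 822 in wild type, and Hspa1l, an HSP70 gene, 14.04 in XBP1 null and 134 in wild type. The common HSP70 of resting cells, Hspa8, had 13303 in XBP1 null and 14493 in wild type chondrocytes by its brightest probe set, a log2 difference of -0.12. All 4 probe sets of Hspa8 were lower, and 1 of them, at 3999 in XBP1 null and 10595 in wild type, was 2.65-fold lower. Hspb7, a small heat shock protein of heart and muscle, went the other way with 464 in XBP1 null and 117 in wild type chondrocytes, as did Dnajc13, an endosomal J-domain protein, by 1 of its 2 probe sets. Of 10 folding genes that the study names as lower in this comparison, chosen by it on these arrays, 4 were over 1.5-fold lower and 1 was higher, with a median of -0.40. This count rests on the choice of probe set: by the median over probe sets 6 were lower and 0 higher (median -0.74), Cryab and Pdia6 being added, and without probe sets that can cross-hybridize 6 were lower and 1 higher (median -0.75), Cryab and Hspa8 being added.

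The widest differences were those of endothelial markers, genes that mark the lining of blood vessels. Of 39 genes 36 were higher in XBP1 null chondrocytes and 0 lower, with a median log2 difference of 3.74. Only 13 of them reached the median signal, and of those 12 were higher and 0 lower, with a median of 1.95. Summed over the list, the signal was 17214 in XBP1 null, 4151 in wild type, 8334 in double mutant and 7252 in Matn3 mutant chondrocytes. In wild type cells 3 of the genes, Icam2, Pecam1 and Tie1, were under a signal of 1. RNA of a digest cannot tell fewer cells of a type from less RNA per cell.

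Genes of endothelial adhesion and junctions differed most. Pecam1, the adhesion molecule CD31, had a signal of 87.7 in XBP1 null chondrocytes and under 1 in wild type chondrocytes, at least 87.7-fold higher. Cdh5, the cadherin of endothelial junctions, had 838 in XBP1 null, 11.5 in wild type, 221 in double mutant and 146 in Matn3 mutant chondrocytes. Cldn5, a tight junction claudin, had 853 in XBP1 null and 21.3 in wild type chondrocytes, 40.1-fold higher. XBP1 null was thus the highest and wild type the lowest of the 4 arrays for these genes. Emcn, a sialomucin of veins and capillaries, had 639 in XBP1 null and 6.01 in wild type, and Selp, a selectin stored in endothelial granules, 906 in XBP1 null and 5.46 in wild type.

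Receptors and factors of the same cells went the same way. Kdr, the main VEGF receptor, had 387 in XBP1 null and 21.0 in wild type chondrocytes, Tek, the angiopoietin receptor, 218 in XBP1 null and 6.68 in wild type, and Aplnr, the apelin receptor, 1199 in XBP1 null and 11.7 in wild type. Sox17 and Sox18, transcription factors of endothelium, had 271 and 176 in XBP1 null chondrocytes, against 13.4 and 13.1 in wild type chondrocytes. Lyve1, a receptor of lymphatic endothelium, had 76.4 in XBP1 null and 5.53 in wild type chondrocytes. Genes that other cells also use gave smaller ratios, such as Ets1 at 2750 in XBP1 null and 1308 in wild type (2.10-fold). The signal of wild type cells was the lowest of the 4 for 32 of the 39 genes (82.1%).

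Markers of other cells around cartilage were higher too, though less widely. Of 13 pericyte and smooth muscle markers 11 were higher and 0 lower, with a summed signal of 20090 in XBP1 null and 10315 in wild type chondrocytes. Rgs5, a pericyte regulator of G proteins, had 4524 in XBP1 null, 1143 in wild type, 1078 in double mutant and 1004 in Matn3 mutant chondrocytes, higher in all 4 probe sets, so that here XBP1 null was the array that stood alone. Abcc9, a channel subunit of pericytes, had 606 in XBP1 null and 86.9 in wild type. Of 18 markers of perichondrium, tendon and fibroblasts 10 were higher and 0 lower, with a summed signal of 85161 in XBP1 null and 63348 in wild type chondrocytes. Dpt, dermatopontin of connective tissue, had 871 in XBP1 null and 55.3 in wild type chondrocytes, and Pdgfra, a receptor of mesenchymal cells, 1724 in XBP1 null and 719 in wild type. The fibroblast activation protein Fap was level, at 10184 in XBP1 null and 10224 in wild type.

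Blood, fat, muscle and skin markers gave mixed values. Of 21 myeloid markers 10 were higher and 0 lower, mostly at low signals (Ptprc, the leukocyte antigen CD45, at 11.5 in XBP1 null and 4.24 in wild type), with Cd14, a receptor for bacterial lipopolysaccharide, at 6133 in XBP1 null and 1961 in wild type. Of 7 adipocyte markers 4 were higher (57.1%, beside 23.3% of all genes). Fabp4, a fatty acid carrier also found in vessels, was at 4285 in XBP1 null and 493 in wild type chondrocytes. Of 9 platelet and mast cell markers 5 were higher and 1 lower, with a median of 0.94. With a floor at the 25th percentile 1 was higher and 1 lower, with a median of 0.21. Kit and Cpa3 were at or near the floor of 1 in wild type cells. Kit had 104 in XBP1 null and 1.38 in wild type, and Cpa3 7.53 in XBP1 null and 0.153 in wild type. Of 16 skeletal muscle markers 10 were higher (62.5%, beside 23.3% of all genes) and 0 lower. The higher ones were all below the median signal except Acta1. The most abundant of the list, Tnnt3, had 1906 in XBP1 null and 2780 in wild type chondrocytes. Of 13 epithelial markers 6 were higher and 1, the keratin Krt5, lower, with Epcam at 2645 in XBP1 null and 672 in wild type. The lymphocyte list was even, with 3 higher and 3 lower of 11, none of which reached the median.

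Genes of the chondrocyte itself were near level. Of 24 genes of the chondrocyte matrix list 1 was higher and 0 lower, with a median of 0.11 that was -0.02 after quantile normalization, and the summed signal was 245388 in XBP1 null and 230072 in wild type chondrocytes. The gene that differed was Cilp, of the cartilage intermediate layer, with 2350 in XBP1 null, 874 in wild type, 1444 in double mutant and 622 in Matn3 mutant chondrocytes. Sox9, the master transcription factor of cartilage, had 5485 in XBP1 null and 3826 in wild type chondrocytes, a ratio of 1.43. Hypertrophic markers gave 3 higher and 2 lower of 11 (27.3% and 18.2%, near the 23.3% and 11.5% of all genes). Of the 9 that reached the median signal 2 were higher and 1 lower, beside 17.2% and 4.12% of all genes that reached it. Col10a1, the collagen of hypertrophic cartilage, had 1370 in XBP1 null and 831 in wild type chondrocytes, while Panx3, a channel of prehypertrophic cells, had 857 in XBP1 null and 1628 in wild type. Of 10 osteoblast and osteocyte markers 4 were higher (40%, beside 23.3% of all genes) and 0 lower. Sp7, the osteoblast factor osterix, was at 218 in XBP1 null and 133 in wild type. The arrays thus held the cartilage identity their labels give, at a like level, beside the unequal markers of vessels and connective tissue.

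**Figure D3:**
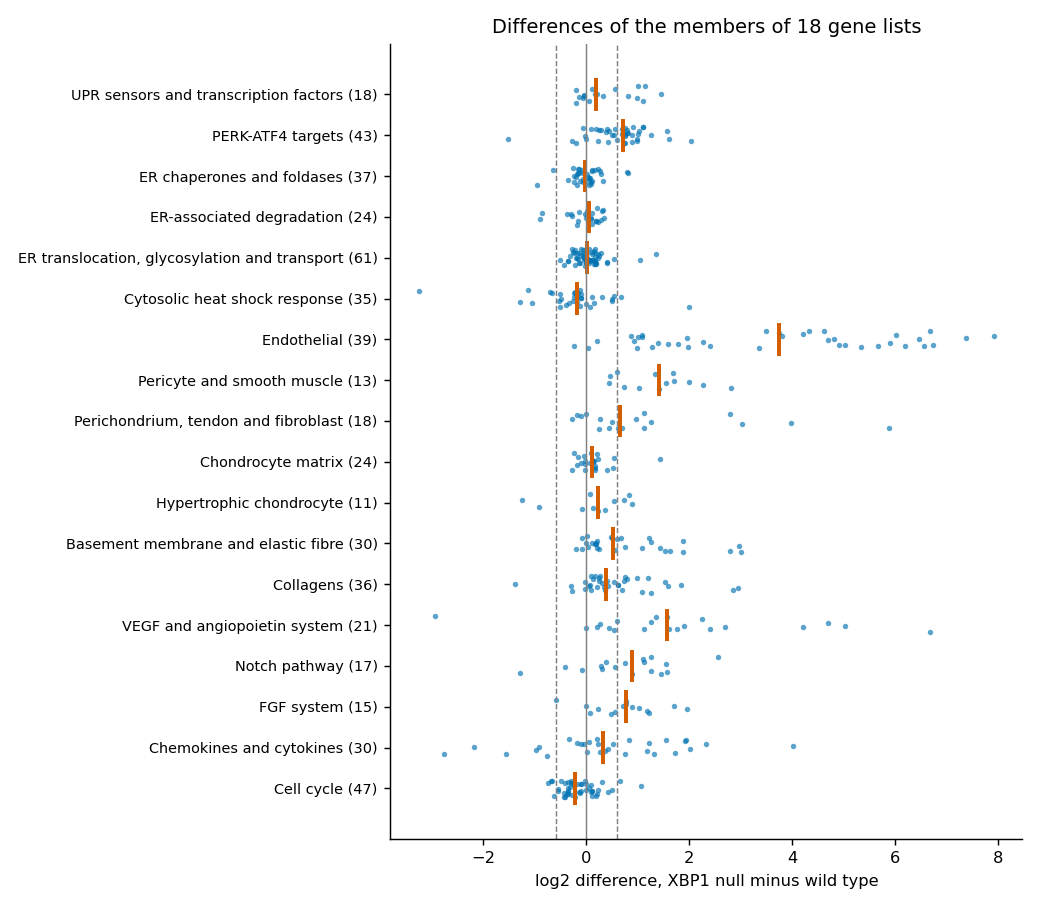
Log2 difference, XBP1 null minus wild type, of every member of 18 gene lists (points), with the median of each list as a vertical bar, dashed lines at 1.5-fold and the number of genes in brackets. The endothelial list has its median at 3.74 and the ATF4 targets at 0.71, while ER chaperones, degradation and transport genes have medians between -0.03 and 0.04.

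Matrix genes outside the cartilage-specific set were often higher in XBP1 null chondrocytes. Of 36 collagen genes 15 were higher (41.7%, beside 23.3% of all genes) and 1, Col4a3, lower, with a median of 0.38. Of the 8 basement membrane collagens 4 were higher and 1 lower, with a median of 0.83. Col4a1, a chain of the type IV network under vessels, had 5937 in XBP1 null, 824 in wild type, 1716 in double mutant and 1144 in Matn3 mutant chondrocytes, 7.21-fold higher, and Col4a2, its partner chain, had 2968 in XBP1 null and 1247 in wild type. Col18a1, which carries endostatin, had 522 in XBP1 null and 147 in wild type chondrocytes. Of 11 fibrillar collagens 6 were higher and 0 lower, with a median of 0.60: Col1a1 of bone and tendon had 7001 in XBP1 null and 4591 in wild type chondrocytes, and Col5a2, which sets fibril width, 9346 in XBP1 null and 5444 in wild type. These sit beside the endothelial list (36 of 39 higher) and the fibroblast list (10 of 18 higher) on the same array, and the part of those cells in the matrix values was not tested.

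Of 30 genes of basement membrane and elastic fibre 14 were higher and 0 lower, with a median of 0.52. Fbln2, a fibulin of vessel and heart matrix, had 554 in XBP1 null, 69.3 in wild type, 71.7 in double mutant and 67.2 in Matn3 mutant chondrocytes by its brightest probe set, whose second probe set differed by 0.25. Lamb1, a laminin chain, had 1002 in XBP1 null and 348 in wild type chondrocytes, higher in all 4 probe sets. Nid1, which links laminin to collagen IV, had 1708 in XBP1 null and 716 in wild type, and Fbln5, which assembles elastic fibres, 922 in XBP1 null and 250 in wild type. Among 29 matrix proteases and inhibitors 12 were higher (41.4%, beside 23.3% of all genes) and 2 lower. Mmp14, a membrane-bound collagenase, had 2816 in XBP1 null and 1209 in wild type chondrocytes, Adamts4, an aggrecanase, 452 in XBP1 null and 160 in wild type, and Timp3, an inhibitor bound to the matrix, 6975 in XBP1 null and 2535 in wild type. Mmp12, the macrophage elastase, was lower at 98.8 in XBP1 null and 206 in wild type chondrocytes. Of the 12 matrix and signalling genes that the study names as higher in this comparison, chosen by it on these arrays, 11 were over 1.5-fold higher. The exception was Tgfb2, at 2524 in XBP1 null and 2211 in wild type chondrocytes by its brightest probe set, although 3 of its 4 probe sets were over the threshold.

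Signalling genes of vessels were higher on both the ligand and the receptor side. Of 21 genes of the VEGF and angiopoietin system, which guides vessel growth, 15 were higher and 1, Vegfb, lower, with 9 of 10 receptors and 6 of 11 ligands higher. Nrp1, a coreceptor for VEGF, had 823 in XBP1 null and 173 in wild type chondrocytes, higher in all 4 probe sets. Vegfc, a growth factor for lymphatic vessels, had 127 in XBP1 null and 41.8 in wild type, and Angptl4, a hypoxia-induced inhibitor of lipoprotein lipase, 1533 in XBP1 null and 455 in wild type. Vegfa, the main growth factor of the family, stayed under the threshold at 1579 in XBP1 null and 1088 in wild type chondrocytes. Several of the receptors are themselves endothelial markers, and the ligand genes alone had a median of 1.12.

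Of 17 Notch genes, which pass signals between touching cells, 10 were higher (58.8%, beside 23.3% of all genes) and 1, Hes5, lower. All 4 receptors were higher, with Notch1 at 694 in XBP1 null and 254 in wild type chondrocytes and Notch3, a pericyte receptor, at 470 in XBP1 null and 161 in wild type. The ligand Jag1 had 956 in XBP1 null and 321 in wild type chondrocytes, and the target genes Hes1 and Hey1 had 852 and 294 in XBP1 null chondrocytes, against 355 and 123 in wild type chondrocytes. Of 15 genes of the FGF system 9 were higher (60%, beside 23.3% of all genes) and 1, Fgfr4, lower. Fgf18, a regulator of growth plate chondrocytes, had 806 in XBP1 null and 247 in wild type chondrocytes, Fgf2 had 376 in XBP1 null and 167 in wild type, and Spry4, a feedback inhibitor induced by FGF, 399 in XBP1 null and 104 in wild type. The receptor Fgfr3, which restrains chondrocyte proliferation, was level, at 3682 in XBP1 null and 3529 in wild type. As with the matrix genes, the part of endothelial and pericyte RNA in these values was not tested.

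In the TGF-beta and BMP group, signals that shape cartilage and bone, calls went both ways, with 4 higher and 4 lower of 22. That is 18.2% each, beside 23.3% higher and 11.5% lower of all genes. Of the 20 that reached the median signal 4 were higher and 3 lower, beside 17.2% and 4.12% of all genes that reached it. Inhba, a subunit of activin, had 7577 in XBP1 null, 2775 in wild type, 2403 in double mutant and 6473 in Matn3 mutant chondrocytes. Its antagonist Fst, follistatin, had 561 in XBP1 null and 119 in wild type chondrocytes. Grem1, an antagonist of BMP, was lower at 1274 in XBP1 null and 3354 in wild type chondrocytes, and Chrdl1, another BMP antagonist, at 394 in XBP1 null and 698 in wild type. Of 8 Hedgehog and PTHrP genes Hhip, an inhibitor of Hedgehog ligands, was higher (34.9 in XBP1 null, 14.8 in wild type) and Ihh, the Hedgehog ligand of the growth plate, lower (7.23 in XBP1 null, 17.1 in wild type), and neither reached the median.

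Inflammatory genes went both ways, cytokines more often higher. Of 11 cytokines and their regulators 7 were higher and 1, Tnf, lower, while of 19 chemokines 5 were higher and 5 lower. Il6 had 3727 in XBP1 null and 1651 in wild type chondrocytes, Il11, a cytokine of bone and cartilage, 2396 in XBP1 null and 727 in wild type, and Ccl5, a chemokine for T cells, 4805 in XBP1 null and 1935 in wild type. Cxcl10, a chemokine induced by interferon, went the other way with 2644 in XBP1 null, 12053 in wild type, 5048 in double mutant and 4273 in Matn3 mutant chondrocytes. Here wild type was the highest of the 4 arrays. Irf1, a transcription factor of the interferon response, had 2872 in XBP1 null and 6725 in wild type chondrocytes. Among 33 genes of interferon response and antigen presentation 7 were higher and 5 lower, with a median of 0.11. These shares (21.2% and 15.2%) lie near the 23.3% and 11.5% of all genes. The 14 that reached the median signal did not: 2 were higher and 4 lower, with a median of -0.27, beside 17.2% and 4.12% of all genes that reached it. Of the 19 interferon-induced members 5 were higher and 1 lower. The lower genes included H2-K1, a class I molecule, at 1411 in XBP1 null and 2318 in wild type chondrocytes and Cd74, the invariant chain of class II, at 227 in XBP1 null and 457 in wild type.

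Few cell division and cell death genes passed 1.5-fold, though the mitosis genes were lower as a group. Of 47 cell cycle genes 2 were higher and 4 lower, and after quantile normalization 1 was higher and 8 were lower. All 4 of the lower genes act in mitosis: Aurka, a spindle kinase (191 in XBP1 null, 319 in wild type), Ttk, a checkpoint kinase (95.8 in XBP1 null and 154 in wild type), Cenpf, of the kinetochore (299.9 in XBP1 null and 479.9 in wild type), and Nusap1, of the spindle (543 in XBP1 null and 841 in wild type). The mitosis genes had a median of -0.36 over 21 genes and ran from -0.74 to -0.13, so all were lower in XBP1 null chondrocytes. All 21 reached the median signal, and of all genes that reached it 4.12% were over 1.5-fold lower. Wild type had the lowest of the 4 signals for 0 of the mitosis genes. By BrdU labelling of growth plates at a later age, the study reports reduced proliferation in XBP1 null mice. Cdkn1a, the p21 inhibitor of cyclin-dependent kinases, was 2.08-fold higher (6958 in XBP1 null, 3342 in wild type), as was Ccnd1, the gene of cyclin D1, by 1.58-fold. Of 15 genes of apoptosis and p53, Bcl2l11, the death effector BIM, was higher in all 5 probe sets (1855 in XBP1 null, 854 in wild type) and Perp was higher (2091 in XBP1 null and 717 in wild type), while Fas, a death receptor, was lower (326 in XBP1 null and 726 in wild type). Pmaip1, the effector NOXA, was lower as well (68.3 in XBP1 null and 238 in wild type).

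Metabolic groups differed little by their medians. Among 22 genes of glycolysis and hypoxia 4 were higher and 4 lower (18.2% each, beside 23.3% and 11.5% of all genes). Of the 20 that reached the median signal 4 were higher and 3 lower, beside 17.2% and 4.12% of all genes that reached it. Epas1, a hypoxia factor abundant in vessels, was at 2297 in XBP1 null and 821 in wild type chondrocytes. Of 26 genes of cholesterol and lipid synthesis Pcyt1a, of phosphatidylcholine synthesis, was higher (1303 in XBP1 null, 858 in wild type) and Lss, of sterol synthesis, lower (836 in XBP1 null, 1404 in wild type). None of 27 proteasome genes and none of 19 autophagy genes passed 1.5-fold, with medians of 0.22 and 0.10. Of 25 immediate early genes, which respond within minutes to the stress of cell isolation among other stimuli, Fosl2, Egr3 and Ier5 were higher and Junb lower, the last at 2894 in XBP1 null and 4839 in wild type chondrocytes.

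The 10 bright genes with the largest ratio were Aplnr, Cd93, Cldn5, Adgrf5, Cavin2, Cd36, Esam, Dpt, Gimap6 and Hebp1, all higher, from 103-fold to 11.5-fold. All 10 were below the cut of about 117 in wild type chondrocytes, so they counted as bright only through the XBP1 null array. Of these, Aplnr, Cldn5 and Esam stand in the endothelial list and Dpt in the fibroblast list, and Cd93, Adgrf5, Cavin2 and Cd36 are also known from vessels. The 10 bright genes that were lowest relative to wild type were Cd83, Smim5, Mdfi, Cxcl10, Gdap10, Elf3, Pmaip1, Cck, Gm5817 and Hoxc6, from 6.99-fold to 3.00-fold. Among them Smim5, Pmaip1, Cck, Gm5817 and Hoxc6 were below the cut in XBP1 null chondrocytes and counted as bright only through wild type. Cd83, a surface protein of activated dendritic cells, had 139 in XBP1 null, 971 in wild type, 336 in double mutant and 485 in Matn3 mutant chondrocytes. Mdfi, an inhibitor of myogenic factors, was lower by its brightest probe set (232 in XBP1 null and 1102 in wild type) and higher by its other one (2.47 on the log2 scale). Of the 1561 higher genes 646 had another bright probe set, which was over 1.5-fold higher as well in 423 genes (65.5%) and lower in 38 (5.88%). Of the 375 lower genes 82 had one, lower in 47 (57.3%) and higher in 5 (6.10%).

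The same deletion on the Matn3 V194D background was measured on a pair of arrays that share none with this one. The pools of that pair differ in sex-linked genes: the Y-linked Eif2s3y had 855 in double mutant chondrocytes and was under 1 in Matn3 mutant chondrocytes, and Xist had 4101 in double mutant and 9718 in Matn3 mutant chondrocytes, while XBP1 null and wild type pools both had Y-linked signal. The part of this in the values set side by side here was not tested. In double mutant against Matn3 mutant chondrocytes 3171 genes (17.4%) were higher and 1642 (9.03%) lower. Of the ATF4 targets 1 was higher (Fgf21, a secreted stress hormone) and 2 were lower (Slc7a11 and Cth) there, with a median of 0.01, in place of 24 and 1 with a median of 0.71. Slc7a1 had 4651 in double mutant and 5494 in Matn3 mutant chondrocytes, and Stc2 had 710.4 in double mutant and 607.9 in Matn3 mutant. The ATF4 targets were thus unequal between XBP1 null and wild type cells, and near level between the 2 genotypes with mutant matrilin-3. Whether the 2 differences differ beyond the error of single arrays was not tested.

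The median of the ER chaperones was near level on both backgrounds, at -0.016 in double mutant against Matn3 mutant chondrocytes and -0.03 in XBP1 null against wild type. Single members were not. On the V194D arrays 0 of the 37 genes were higher and 5 lower (13.5%, beside 9.03% of all genes), namely Creld2, Hyou1, Dnajc3, Sdf2l1 and Ero1b. Of the 37 genes 36 reached the median signal, and of all genes that reached it only 2.25% were lower on these arrays. Creld2 had 2009 in double mutant and 4667 in Matn3 mutant chondrocytes, a log2 difference of -1.22, beside 1509 in XBP1 null and 1645 in wild type. Hyou1 had 615 in double mutant and 1022 in Matn3 mutant chondrocytes, beside 257 in XBP1 null and 273 in wild type. Sdf2l1, a cofactor of BiP, had 1599.8 in double mutant and 2608 in Matn3 mutant on the V194D arrays and 489 in XBP1 null and 557 in wild type without the mutation. Of the 17 tabulated genes downstream of XBP1, alone or with ATF6, 0 were higher and 6 lower in double mutant cells, in place of 2 and 0. The share lower was 35.3%, beside 9.03% of all genes. The study tabulates these genes with their folds in that comparison, on these same arrays, so the count is not independent of its table. For Creld2, Hyou1 and Sdf2l1 the signals on both arrays with mutant matrilin-3 exceeded those of XBP1 null and wild type cells.

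Endothelial markers were higher on both backgrounds, by unlike amounts. In double mutant against Matn3 mutant chondrocytes 21 of 39 were higher and 3 lower (Vwf, Lyve1 and Flt4), with a median of 0.60, beside 36, 0 and 3.74. Kdr had 84.3 in double mutant and 45.4 in Matn3 mutant chondrocytes, and Tek 53.6 in double mutant and 33.2 in Matn3 mutant. Col4a1 had 1716 in double mutant and 1144 in Matn3 mutant. Fgf18 and Notch1 were near level on that background, with differences of -0.06 and -0.09. Of the 9097 bright genes the differences on the 2 backgrounds had a correlation of -0.20 across genes, which are not independent replicates.

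**Figure D4:**
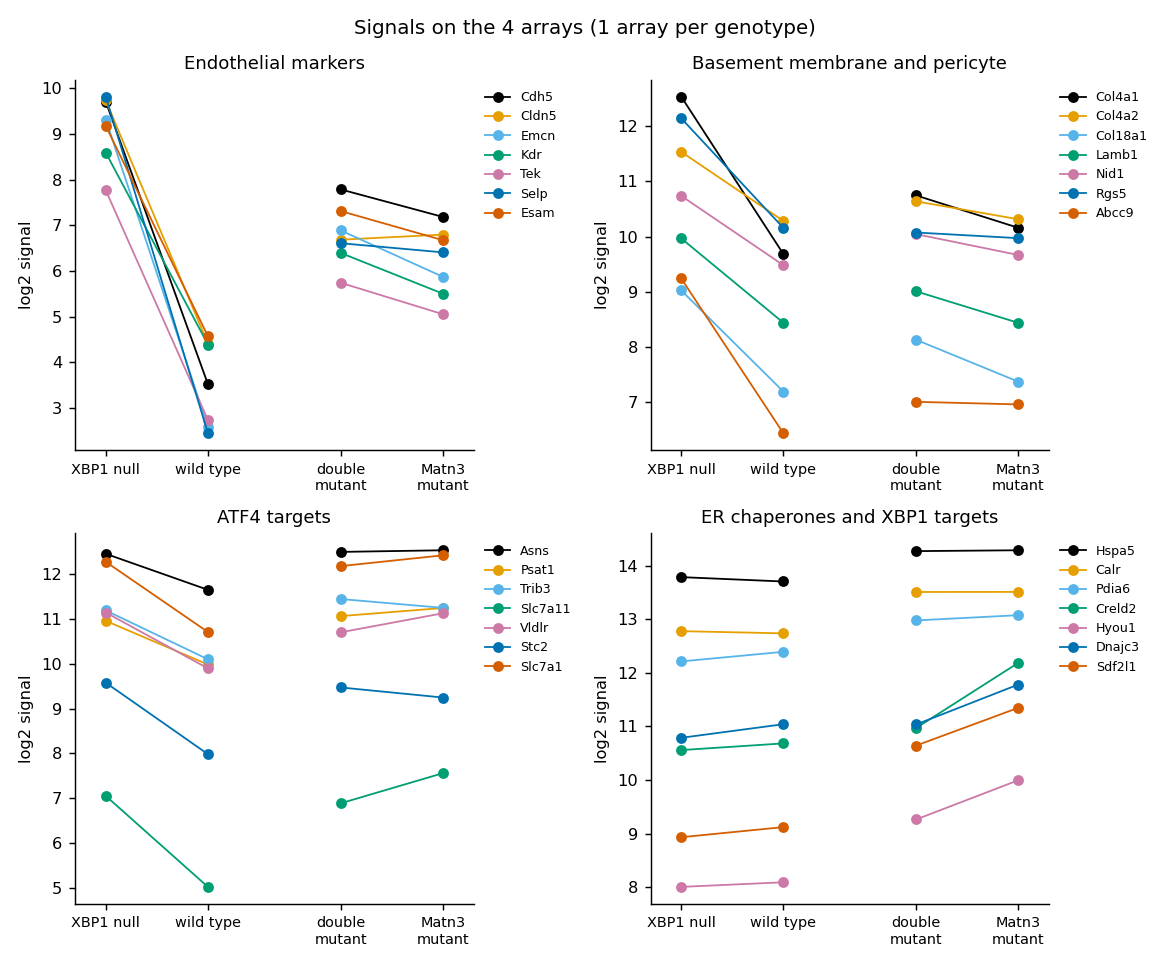
Log2 signal of 28 genes on the 4 arrays, 1 array per genotype, with a line joining each genotype that lacks XBP1 to its control. Endothelial, basement membrane and pericyte genes drop steeply between XBP1 null and wild type. Between double mutant and Matn3 mutant most of them differ less, though some, such as Kdr, Tek and Col4a1, still by over 1.5-fold. ATF4 targets are lower in wild type alone, and Creld2, Hyou1, Dnajc3 and Sdf2l1 are higher in Matn3 mutant than in double mutant.

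**Figure D5:**
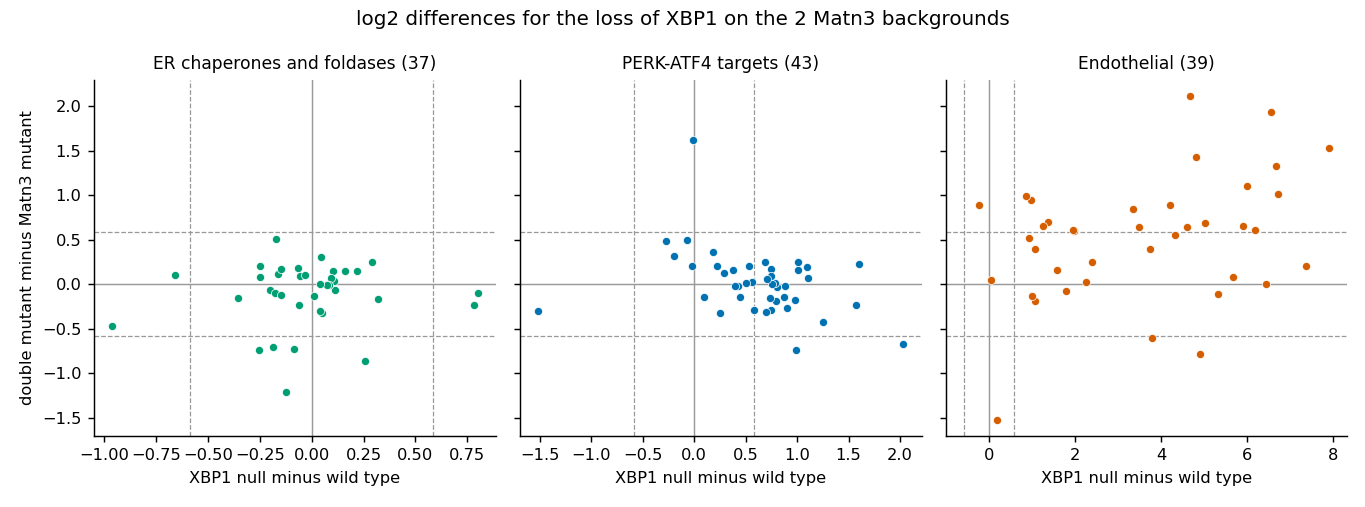
Log2 difference for the loss of XBP1 in Matn3 mutant mice (double mutant minus Matn3 mutant, vertical axis) against that in mice without the mutation (XBP1 null minus wild type, horizontal axis), 1 point per gene, with dashed lines at 1.5-fold and a horizontal scale of its own in each panel. Chaperones spread downward to -1.22, ATF4 targets spread to the right to 2.03, and most endothelial markers lie to the right of the line.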

How the data were processed

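The authors hybridized RNA of rib chondrocytes, pooled from 3 extractions per genotype, to Mouse430_2 arrays, 1 for each of 4 genotypes. The deposited values are linear intensities of 45037 probe sets. Probe summarization and scaling: not given in the sources used here. Each array has a median of 43.8, and 8.36% to 10.9% of its values lie under 1. The methods name PPLR, which needs probe-level errors, with a 1.5-fold change; only the fold was applied here.

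Values under 1 were set to 1 and taken as log2, and no scaling was added. Of all probe sets, 34945 name 1 symbol, 932 several and 9160 none in the platform annotation, and the first kind cover 18193 genes. A gene is represented by the probe set that is brightest on average (mean log2, 4 arrays). A fold against a value under 1 is a lower bound. Counts over 1.5-fold and medians were made for 43 lists holding 898 genes, of which 840 were matched and the other 58 were not analysed here. Members and lists were chosen with earlier results of these data known. Genes named were the 10 most higher and most lower that reach the median, up to 8 bright members of a list, defining markers, genes the study names and the UPR sensors. Named outside this rule, after their values were seen, were Asns, Calr, Cbs, Cnpy2, Col4a3, Derl3, Egr3, Eif4ebp1, Ero1b, Fgf21, Fgfr3, Fgfr4, Flt4, Fosl2, Gars, Herpud1, Hes5, Hhip, Hspa5, Ier5, Ihh, Junb, Krt5, Lss, Nupr1, Pcyt1a, Psat1, Sdf2l1, Slc7a11, Tmed2, Tnf, Txndc5, Txndc11 and Vegfb. Alternatives were median centring, quantile normalization, a floor at the 25th percentile, other choices of probe set, a filter on low values and a 2-fold threshold. Motifs were searched in RefSeq promoters (build GRCm38.p6) by gene symbol. Code was tested on simulated data. Python 3.11.15, numpy 2.4.6 and pandas 2.3.3 were used.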

Additional observations from a re-analysis of the deposited data

Results flagged for a closer look

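Of 75 named genes, 5 were over 1.5-fold apart in opposite directions on the 2 backgrounds, lower in XBP1 null than in wild type chondrocytes and higher in double mutant than in Matn3 mutant chondrocytes. These differences rest on 1 array per genotype and were not tested. Smim5 had log2 differences of -2.32 and 2.76, with signals of 68.5 in XBP1 null, 341 in wild type, 120 in double mutant and 17.6 in Matn3 mutant chondrocytes. Pmaip1, the death effector NOXA, had differences of -1.80 and 2.21. Gm5817 had -1.64 and 0.89, Hoxc6, a homeobox gene, -1.58 and 0.92, and Dnajc22, a membrane J-domain protein, -1.28 and 0.72.

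Probe sets that name no gene in the annotation entered none of the comparisons above. Of the 1393 that reached the median, 173 (12.4%) were over 1.5-fold higher in XBP1 null than in wild type chondrocytes and 354 (25.4%) lower, beside 17.2% and 4.12% of the brightest probe sets of named genes. Further probe sets of named genes lay between, with 15.3% higher and 9.30% lower of 5860. In double mutant against Matn3 mutant chondrocytes, 5.24% of the unnamed probe sets were higher and 21.0% lower, so that the surplus of lower values was present on both backgrounds.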

How the results depend on the processing

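Median centring and quantile normalization kept all 43 list medians and all 75 named genes within the spread between probe sets (0.37) of the values given. Median centring could change little, because the arrays already share a median signal of 43.8. The spread of 0.37 is that of single genes and so a wide allowance for a list median. Quantile normalization moved the median of the bright genes from 0.11 to -0.03, so that lists near level, such as chondrocyte matrix and ER-associated degradation, changed sign within that spread, and heat shock (6 to 10 lower) and cell cycle genes (4 to 8 lower) gained calls. The counts of genes followed the rule: 2372 higher and 988 lower at a 2-fold threshold, and 1560 higher and 364 lower among genes at or above the median over the 4 arrays, where fewer genes are counted. In that last set 14 endothelial markers had a median of 2.10, and 3 skeletal muscle markers a median of -0.059, against 0.88 for the whole list. With the median over probe sets Mdfi had 0.11 and Dnajc13 -0.086, and without probe sets that can cross-hybridize Ppp1r15b had -0.34, each the reverse of its brightest probe set. Of the 18 UPR sensors and factors, 4 were higher and 3 lower by the median over probe sets, and 3 of 16 were higher and 0 lower without probe sets that can cross-hybridize, in place of 6 and 0. In all, 284 values of list medians stayed within the spread and 14 moved past it, and for named genes 422 stayed and 20 moved. No paired analysis was possible because each genotype has 1 array. At signals under 16, where probe sets of a gene differ by an SD of 1.13, a 1.5-fold difference is within that spread.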

Other observations

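A pair of gene groups outside the lists was read after their values had been seen. Of 13 histone genes 1 was over 1.5-fold higher and 9 were lower in XBP1 null than in wild type chondrocytes. Of all genes 23.3% were higher and 11.5% lower. The median of the histone group was -0.90 on the log2 scale. H2bc22, an H2B gene, had a signal of 348 in XBP1 null, 901 in wild type, 339 in double mutant and 362 in Matn3 mutant chondrocytes, and H3c11, an H3 gene, had 203 in XBP1 null and 530.1 in wild type chondrocytes. H1f2, the most abundant of the group, had 13162 in XBP1 null and 14386 in wild type chondrocytes. Wild type was thus the highest array for H2bc22, and the abundant linker histone was near level.

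Of 25 regulators and targets of NF-kB, a transcription factor of inflammation, 3 were higher and 9 lower, with a median of -0.26. Over all genes the shares were 23.3% higher and 11.5% lower. Tnfaip3, the inhibitor A20, had 3063 in XBP1 null, 6288 in wild type, 3603 in double mutant and 4091 in Matn3 mutant chondrocytes, lower in both of its probe sets. Nfkbie, an inhibitor of the same factor, had 209 in XBP1 null and 571 in wild type chondrocytes, and Rel, a subunit, 837 in XBP1 null and 1637 in wild type. Ptgs2, the inducible cyclooxygenase and also a target, went the other way with 10044 in XBP1 null and 5180 in wild type chondrocytes. Since these genes were picked for their values, the counts are a description of them alone.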
